A study of Homo sapiens with 6 samples.

Results

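Cadherins are the calcium-dependent adhesion proteins that hold neighbouring cells together. In LX-2 cells, a widely used line derived from human hepatic stellate cells, they were followed through the genes CDH1, CDH2, CDH3, CDH4, CDH6, CDH10, CDH11 and CDH13 and through CTNNB1, which encodes their intracellular partner β-catenin. Genes were taken by symbol, and 8 of the 9 symbols were found among the 27830 genes of the table. CDH1 was not analysed here. RNA sequencing compared 3 LX-2 samples given 10 ng/ml transforming growth factor beta 1 (TGF-β1) for 24 h with 3 control samples that received none. Per the labels, treated cells were kept without serum, and no medium is named for the controls, so TGF-β1 and a change of serum cannot be told apart. All samples are of 1 cell line, and nothing says that they were separate cultures, so a p-value here measures the spread of these samples alone, and that spread may be technical. In RNA from a whole culture, fewer cells of a kind and less RNA per cell cannot be told apart.

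A classical cadherin binds the same or a related cadherin on the next cell through its outer domains, and its tail binds β-catenin, which links through α-catenin to actin. Type I members such as N-cadherin carry a conserved adhesive motif in the outermost domain, while type II members such as cadherin-11 have a different adhesive surface. In epithelial cells, TGF-β signalling is known for the cadherin switch, in which E-cadherin (CDH1) is lost and N-cadherin (CDH2) gained. Stellate cells are mesenchymal, and N-cadherin and cadherin-11 are known in activated stellate cells and fibroblasts. β-catenin also has a second life as the nuclear partner of TCF and LEF factors in Wnt signalling.

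Library totals were 13866957 to 17694675 counts, and 14463 genes passed the filter on low counts and were tested. Among 8 genes known to respond to TGF-β, FN1 (207.9 FPKM with TGF-β1 and 56.8 FPKM in controls), TGFBI, TAGLN and PMEPA1 rose (edgeR adjusted p = 5.11e-05 to 0.0314), while ACTA2, the α-smooth muscle actin gene, had 1.60 FPKM with TGF-β1 and 1.67 FPKM in controls. FPKM are read counts scaled to gene length and library total. PDGFRB (6.66 FPKM with TGF-β1 and 6.62 FPKM in controls) and VIM (238.0 FPKM with TGF-β1 and 271.8 FPKM in controls) were present. However, 6 of 11 stellate and fibroblast markers, DES, LRAT, LUM and DCN among them, averaged under 1 CPM. CPM are counts scaled to library totals adjusted by edgeR's TMM factors, and not to gene length. Summed epithelial markers were 444.8 to 627.8 CPM with TGF-β1 and 565.7 to 707.2 CPM in controls (exact permutation p = 0.5, two-sided), carried by KRT8 (339.6 CPM with TGF-β1 and 379.4 CPM in controls) and KRT18 (181.6 CPM with TGF-β1 and 221.9 CPM in controls), while EPCAM, KRT19, CLDN3 and CLDN7 averaged under 1 CPM. Endothelial markers summed to 7.95 to 9.17 CPM with TGF-β1 and 7.38 to 8.91 CPM in controls (exact permutation p = 0.6), and CDH5, VWF, EMCN and CLDN5 averaged under 1 CPM. Leukocyte markers summed to 16.8 to 19.4 CPM with TGF-β1 and 17.8 to 24.8 CPM in controls (exact permutation p = 0.3), CD14 being the highest (10.2 CPM with TGF-β1 and 15.8 CPM in controls) and PTPRC, ITGAM and LYZ under 1 CPM. Hepatocyte markers summed to 55.9 to 71.7 CPM with TGF-β1 and 50.2 to 53.8 CPM in controls (exact permutation p = 0.1), carried by CPS1 (37.1 CPM with TGF-β1 and 25.6 CPM in controls) and SERPINA1 (27.7 CPM with TGF-β1 and 26.9 CPM in controls), with APOA1 and APOB under 1 CPM. The part of these markers in the results was not tested. Stellate and fibroblast markers summed to 2941 to 3337 CPM with TGF-β1 and 2811 to 2980 CPM in controls (exact permutation p = 0.2). COL1A1 was the highest of them (1770 CPM with TGF-β1 and 1331 CPM in controls) and is also among the 8 TGF-β response genes, while VIM, given above, was lower with TGF-β1. The smallest p that 3 against 3 samples allow is 0.1.

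The libraries also differed in how levels followed the GC content of transcripts. Over the 1033 tested genes with up to 40% GC, the median log2 deviation from the gene's mean was 0.69, 0.24 and -0.19 in TGF-β1 replicates 1 to 3, against -0.09, -0.45 and -0.13 in control replicates 1 to 3. Over the 4679 genes with at least 55% GC it was -0.21, -0.05 and 0.09 with TGF-β1, against 0.02, 0.21 and -0.04 in controls. This trend was partly aligned with the groups and touches the results below, since CDH2 transcripts average 45.0% GC and CDH4 transcripts 59.2%. Differences of the tested members are therefore given as first tested and with the trend removed.

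R-cadherin, N-cadherin and β-catenin made up most of the members' summed level. CDH4, which encodes the type I R-cadherin, was the most abundant, at 62.3 FPKM over all 6 libraries and rank 651 among all genes. CTNNB1 followed at 36.8 FPKM, CDH2 at 24.8 and CDH13 at 12.5 FPKM. CDH11 stood at 1.31 FPKM, CDH10 at 0.267, CDH3 at 0.0710 and CDH6 at 0.0250 FPKM. The order was the same in the TGF-β1 libraries alone and in the control libraries alone. The ranges over libraries overlapped for CTNNB1 and CDH2 and for CDH3 and CDH6, although CTNNB1 was above CDH2 in all 6 libraries and CDH3 above CDH6 in 5. Other neighbours in this order did not overlap. The place of CDH2 depended on its length: the deposited FPKM use 8583 bases, while its exons in GENCODE release 29 cover 4950. At that length, a choice tried after seeing the data, CDH2 would average 43.0 FPKM and CTNNB1 36.3 FPKM. CDH2 would lie above CTNNB1 in the 3 TGF-β1 libraries and below it in the 3 controls. The counts were kept as deposited, so any reads from bases outside those exons stay in. These CDH2 values may therefore be too high. For the other members the lengths differed by a factor of 0.986 to 1.03. Differences of 1 gene between groups do not depend on its length.

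**Figure D1:**
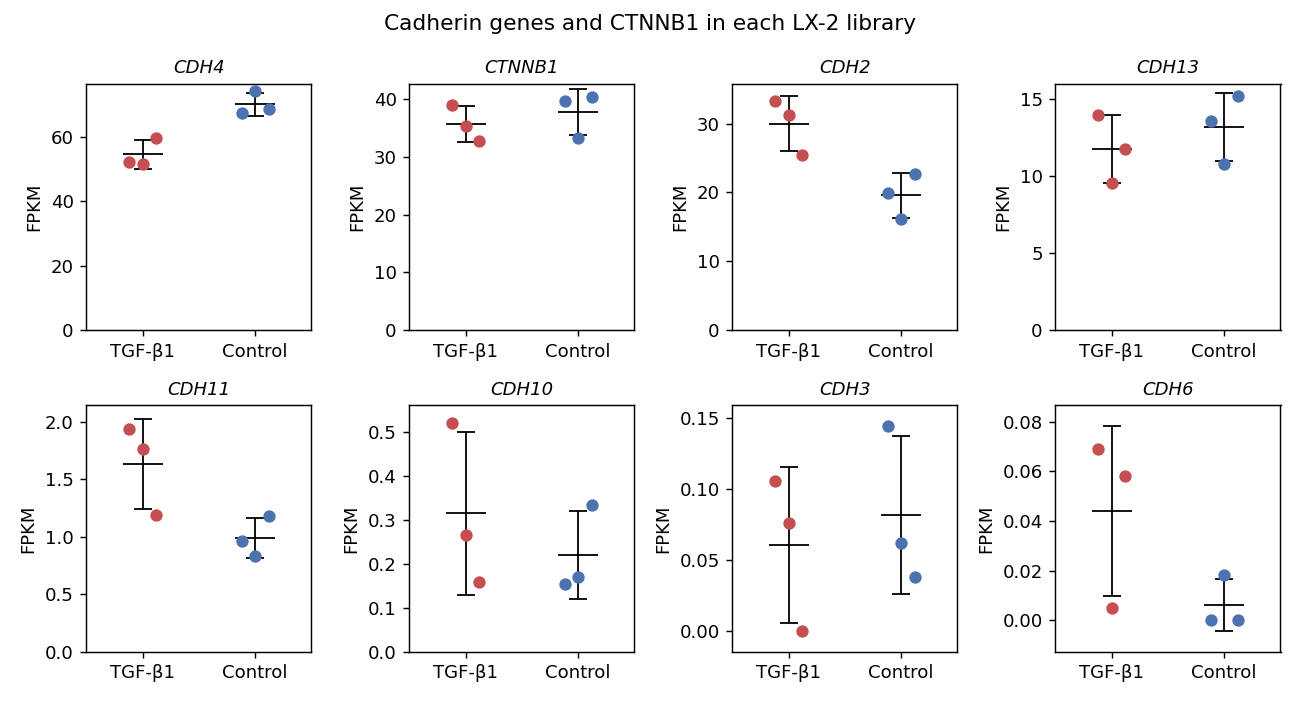
FPKM (vertical axes, each gene on its own linear scale) of 8 genes in 3 TGF-β1 and 3 control libraries; points are libraries, horizontal bars are means and error bars SD. For CDH2 the TGF-β1 libraries sit between 25.5 and 33.2 FPKM, above the controls, and for CDH4 between 51.7 and 59.7 FPKM, below them.

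The first comparison was whether any of these genes differed after TGF-β1. In the edgeR quasi-likelihood test at an adjusted p under 0.05, 0 of the 6 tested members passed, where 0.366% of all tested genes did. At an unadjusted p under 0.05 the members that passed were CDH2, CDH4 and CDH11, 3 of 6, against 15.6% of all tested genes. In the same 3 genes the CPM of the groups did not overlap, as in 17.1% of all tested genes. CDH2 and CDH11 lay higher without overlap, as did 7.93% of all tested genes, and CDH4 lower, as did 9.12%. DESeq2 called 2 members, CDH2 and CDH11, among 4.25% of all genes called, and limma voom called 0. After removal of the GC trend edgeR also called CDH2 and CDH11, both higher, while 3.09% of all tested genes were called in either direction and 1.56% as higher. These 2 were called with no filter as well, with 4.46% of all genes. With the replicate number as a block, CDH2 was the 1 member called, both before (3.64% of all genes called) and after GC removal (3.13%).

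CDH2 encodes N-cadherin, the type I cadherin of neurons, muscle and mesenchymal cells, and lies on the minus strand of chromosome 18 from 27950966 to 28177446 (GRCh38). It had 33.2, 31.3 and 25.5 FPKM with TGF-β1, against 19.95, 16.1 and 22.6 FPKM in controls. The lowest TGF-β1 library was thus above the highest control, by a narrow margin. The mean was 29.99 ± 4.02 FPKM with TGF-β1 and 19.6 ± 3.28 FPKM in controls (SD, n = 3 each). On the log2 scale it differed by 0.60 ± 0.15 (SE), or 1.51-fold, with 0.28 to 0.92 as the 95% interval, which did not pass (edgeR adjusted p = 0.117). Once the GC trend was removed it was 0.42 ± 0.09 (SE), or 1.34-fold, and passed (edgeR adjusted p = 0.0229). On that scale CDH2 had 226.8, 250.6 and 240.3 CPM with TGF-β1, against 176.0, 169.0 and 191.2 CPM in controls, and the libraries of each group lay closer together than in FPKM. That call was lost without control replicate 1 (edgeR adjusted p = 0.164), control replicate 2 (0.131) or TGF-β1 replicate 2 (0.121). Without the GC step, CDH2 passed when TGF-β1 replicate 1 (edgeR adjusted p = 0.0226, with 2.2% of all genes called) or replicate 3 (0.0116, with 11.2%) was left out. An antisense gene, AC110015.1, covers 2.75% of its exon bases and had 0 to 3 counts per library.

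CDH4 encodes R-cadherin, first known from retina and brain, and lies on the plus strand of chromosome 20 from 61252426 to 61940617. It ran the other way, with 52.2, 51.7 and 59.7 FPKM with TGF-β1, against 67.5, 74.1 and 68.7 FPKM in controls. Every TGF-β1 library was below every control library. The mean was 54.5 ± 4.48 FPKM with TGF-β1 and 70.1 ± 3.52 FPKM in controls (SD, n = 3 each). Its log2 difference, -0.38 ± 0.13 (SE; 95% interval -0.65 to -0.11), did not pass (edgeR adjusted p = 0.19). After GC removal it was -0.27 ± 0.09 (SE; edgeR adjusted p = 0.104). It passed without TGF-β1 replicate 3, before (edgeR adjusted p = 0.0263) and after removal of the GC trend (0.0476). No exon base of CDH4 overlaps another gene.

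CDH2 and CDH4 were the most abundant cadherins among the members and differed in opposite directions. The promoters of both are therefore shown, from 250 bases before to 50 after a transcription start of RefSeq (GRCh38.p14). The CDH2 sequence is chr18:28177081-28177380 on the minus strand, at the outer of its 2 listed starts. The CDH4 sequence is chr20:61599511-61599810 on the plus strand, at the inner of the 2 starts listed for this gene, unlike the choice for CDH2. Both listed CDH4 starts lie inside the gene as annotated by GENCODE, so the promoter at its outermost start is not shown. Capitals mark CAGAC or its reverse complement GTCTG, the core of the element that SMAD proteins bind.
CDH2: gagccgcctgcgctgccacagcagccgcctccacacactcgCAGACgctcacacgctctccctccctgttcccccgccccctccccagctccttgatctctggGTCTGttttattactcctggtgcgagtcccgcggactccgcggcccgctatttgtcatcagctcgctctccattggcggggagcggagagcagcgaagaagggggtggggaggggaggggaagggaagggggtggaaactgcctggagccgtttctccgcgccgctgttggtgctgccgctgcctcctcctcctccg
CDH4: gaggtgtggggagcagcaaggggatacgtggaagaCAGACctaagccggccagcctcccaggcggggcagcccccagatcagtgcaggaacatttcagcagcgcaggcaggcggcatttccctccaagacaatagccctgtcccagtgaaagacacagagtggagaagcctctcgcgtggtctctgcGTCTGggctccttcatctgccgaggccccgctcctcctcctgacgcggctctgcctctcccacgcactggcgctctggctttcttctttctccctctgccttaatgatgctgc
Each held 2 matches, and 45.3% of 35116 promoters of this length held at least 1. Neither held CAGGTG or CACCTG, the E-box known from Snail and ZEB binding, which 20.6% of promoters held, nor GTCTAGAC, which 0.202% held. The CDH4 promoter at its other listed start, chr20:61499171-61499470, held 1 CAGGTG match and no CAGAC match, and that at the inner CDH2 start, chr18:28036592-28036891, 1 CAGAC match and no CAGGTG match. A match is a string of letters and says nothing of binding.

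CDH3, the type I P-cadherin of basal epithelia and placenta, was near the detection floor. It had 11, 8 and 0 counts with TGF-β1, against 13, 7 and 4 counts in controls. It did not pass the filter, and the groups overlapped. It lies on chromosome 16 from 68636189 to 68722616, and an opposite-strand gene covers 11.1% of its exon bases, so its few counts are uncertain in libraries that do not mark strand.

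Of the type II cadherins among the members, CDH11 was the most abundant. CDH11 encodes cadherin-11 or OB-cadherin, known from osteoblasts and activated fibroblasts, on the minus strand of chromosome 16 from 64943753 to 65126112. It had 1.94, 1.76 and 1.19 FPKM with TGF-β1, against 0.960, 0.830 and 1.18 FPKM in controls. TGF-β1 replicates 1 and 2 were clearly higher, while TGF-β1 replicate 3 was close to control replicate 3. The mean was 1.63 ± 0.392 FPKM with TGF-β1 and 0.990 ± 0.177 FPKM in controls (SD, n = 3 each). Its log2 difference, 0.70 ± 0.21 (SE; 95% interval 0.25 to 1.15) or 1.62-fold, did not pass (edgeR adjusted p = 0.159). After GC removal it was 0.75 ± 0.18 (SE), or 1.68-fold, and passed (edgeR adjusted p = 0.0434). CDH11 transcripts average 52.6% GC, and the removal changed its difference little. The call was lost without TGF-β1 replicate 1 (edgeR adjusted p = 0.0752) or replicate 2 (0.196), and without control replicate 1 (0.18) or 2 (0.154). Without TGF-β1 replicate 3 it passed both before (0.014) and after GC removal (0.00491).

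CDH10, a type II cadherin of the nervous system, had 31, 16 and 8 counts with TGF-β1, against 8, 11 and 20 counts in controls. The groups overlapped. A log2 difference of 0.50 ± 0.48 (SE) was not called (edgeR adjusted p = 0.645). Its 95% interval ran from -0.54 to 1.54 and thus did not exclude a 2-fold rise. After GC removal the log2 difference was 0.14 ± 0.40 (SE; edgeR adjusted p = 0.886), and it turned negative when some samples were left out. CDH6, the type II K-cadherin of kidney, had 14, 1 and 10 counts with TGF-β1, against 0, 4 and 0 counts in controls. The sums were 25 counts with TGF-β1 and 4 in controls, and the groups overlapped. CDH6 did not pass the filter, and with no filter it did not pass the test (edgeR adjusted p = 0.0629). A same-strand processed pseudogene, DUX4L51, covers 8.96% of its exon bases and an antisense gene 1.01%, so its few counts are uncertain. CDH10 and CDH6 both lie on chromosome 5, from 24487100 to 24644978 and from 31193750 to 31329146.

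CDH13 encodes T-cadherin, an atypical member held in the membrane by a lipid anchor with no tail for β-catenin. It lies on chromosome 16 from 82626803 to 83800640. It had 13.97, 9.55 and 11.7 FPKM with TGF-β1, against 13.5, 10.8 and 15.2 FPKM in controls. The groups overlapped throughout. Its log2 difference, -0.18 ± 0.17 (SE; 95% interval -0.54 to 0.18), did not pass (edgeR adjusted p = 0.636), and ran from -0.32 to -0.04 as single samples were left out. After GC removal it was -0.22 ± 0.12 (SE; edgeR adjusted p = 0.33).

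CTNNB1, the gene of β-catenin, lies on the plus strand of chromosome 3 from 41194741 to 41260096. It had 39.0, 35.3 and 32.9 FPKM with TGF-β1, against 39.7, 33.2 and 40.5 FPKM in controls. The groups overlapped, and its log2 difference of -0.10 ± 0.12 (SE; 95% interval -0.37 to 0.17) was not called (edgeR adjusted p = 0.731). After GC removal it was -0.23 ± 0.08 (SE; edgeR adjusted p = 0.154). On that scale CTNNB1 had 383.8, 396.8 and 416.8 CPM with TGF-β1, against 476.7, 459.5 and 464.0 CPM in controls, so the groups no longer overlapped. With CDH2, CDH4 and CDH11 this made 4 of 6 members without overlap, against 23.3% of all tested genes (10.2% higher and 13.2% lower).

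**Figure D2:**
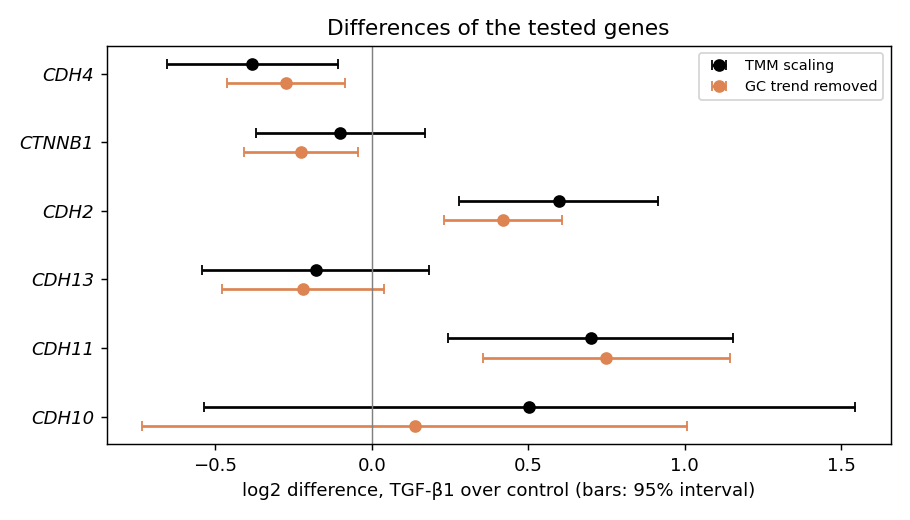
Log2 difference of TGF-β1 over control (horizontal axis) for the 6 tested genes, with 95% intervals, before (black) and after (orange) removal of the GC trend. CDH2 (0.60 and 0.42) and CDH11 (0.70 and 0.75) lie to the right of 0 and CDH4 (-0.38 and -0.27) to the left, and the interval of CDH10 is the widest of the 6.

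The second comparison was of the make-up of the cadherin transcripts, as each gene's share of the summed FPKM of the 7 cadherins among the members. Cadherins outside the members, such as CDH24 and CLSTN1, were not part of the sum. That sum was 102.0, 94.6 and 98.3 FPKM with TGF-β1, against 102.3, 102.1 and 108.1 FPKM in controls. CDH2 took 32.5%, 33.0% and 25.9% with TGF-β1, against 19.5%, 15.8% and 20.9% in controls. CDH4 took 51.2%, 54.6% and 60.7% with TGF-β1, against 66.0%, 72.6% and 63.6% in controls. In FPKM as deposited CDH4 was thus the largest share in every library, and neither share overlapped between the groups. With the GENCODE length for CDH2, its share would be 45.2%, 45.7% and 37.4% with TGF-β1, against 29.3%, 24.2% and 31.1% in controls, and CDH4 would take 41.9%, 44.6% and 51.7% with TGF-β1, against 58.4%, 65.7% and 55.8% in controls. CDH2 would then exceed CDH4 in TGF-β1 replicates 1 and 2, and the groups still would not overlap. The counts were again kept as deposited, so this CDH2 share may be too high and this CDH4 share too low. CDH13 took 11.9% ± 1.80 with TGF-β1 and 12.6% ± 1.83 in controls (SD, n = 3 each), and CDH11 1.21% to 1.90% with TGF-β1 and 0.813% to 1.09% in controls.

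**Figure D3:**
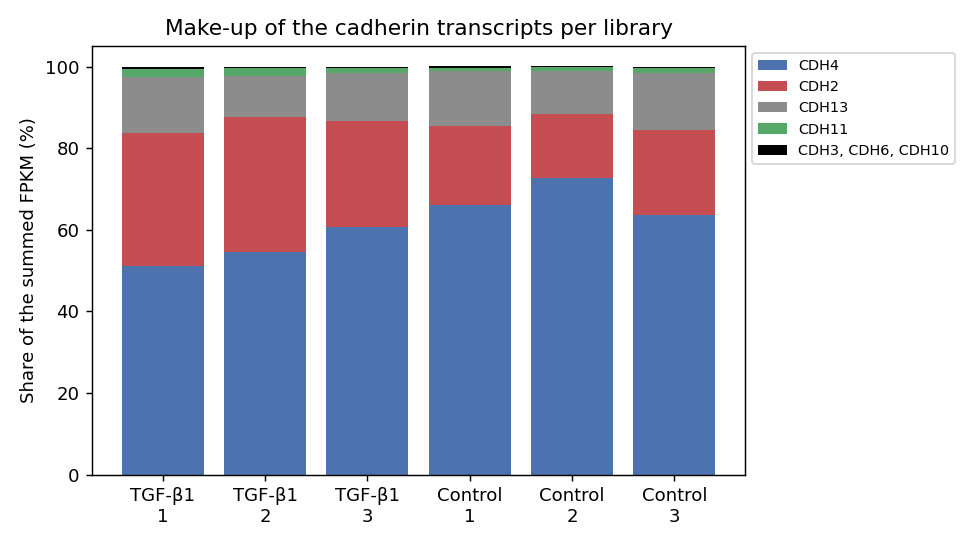
Share of the summed FPKM of 7 cadherin genes (vertical axis, %) in each of 3 TGF-β1 and 3 control libraries. With gene lengths as deposited CDH4 forms the largest part of each bar, and the CDH2 part is 25.9% to 33.0% with TGF-β1 and 15.8% to 20.9% in controls.

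The ratio of 2 genes within a library does not depend on how libraries are scaled. CDH2 over CDH4 in FPKM was 0.636, 0.605 and 0.427 with TGF-β1, against 0.296, 0.217 and 0.329 in controls. The mean was 0.556 ± 0.113 with TGF-β1 and 0.281 ± 0.0574 in controls (SD, n = 3 each), a log2 difference of 0.98. TGF-β1 replicate 3, the library with the lowest CDH2 and the highest CDH4 of its group, stood nearest to the controls. With GENCODE lengths the ratio would be 1.08, 1.03 and 0.724 with TGF-β1, against 0.501, 0.369 and 0.559 in controls. For the same reason these ratios may be too high. With the GC trend removed and per kilobase, the ratio was 0.454, 0.558 and 0.481 with TGF-β1, against 0.306, 0.293 and 0.319 in controls, a log2 difference of 0.70. The spread within each group was then smaller, and the order of the TGF-β1 libraries was different. The ratio was formed after the values of both genes were known and was given no test. CDH2 over CDH13 in FPKM was 2.38, 3.27 and 2.18 with TGF-β1, against 1.47, 1.50 and 1.49 in controls. CDH13 over CDH4 overlapped between the groups, at 0.185 to 0.267 with TGF-β1 and 0.145 to 0.221 in controls.

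**Figure D4:**
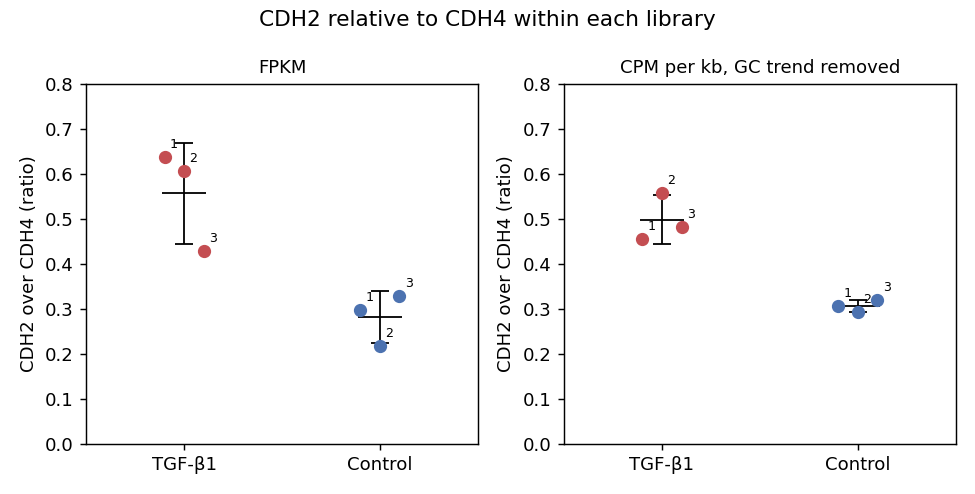
Ratio of CDH2 to CDH4 (vertical axis) in each library, numbered by replicate, in FPKM (left) and in CPM per kilobase with the GC trend removed (right); bars are means and error bars SD. The TGF-β1 libraries lie above the controls in both panels, at 0.427 to 0.636 and 0.454 to 0.558, against 0.217 to 0.329 and 0.293 to 0.319.

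Other genes of cadherin adhesion were read in 9 lists, of which 94 genes were tested. The edgeR test called 0, against 0.366% of all tested genes, and 21 had an unadjusted p under 0.05, a threshold that 15.6% of all tested genes passed. After removal of the GC trend, 5 passed as higher (DSG2, DSP, APC, PTPRK and TCF4) and 3 as lower (DCHS1, PCDH7 and CTNNAL1), where 3.09% of all tested genes passed. These 8 genes are named after their values were seen. The calls depended on the libraries: with GC removal, 0 higher and 1 lower were called without TGF-β1 replicate 2 or without control replicate 1, and 10 higher and 6 lower without TGF-β1 replicate 3. Over all genes, the higher and lower calls in those fits were 38 and 41, 41 and 61, and 670 and 904. CTNNAL1 was called in all 6 fits that left out 1 sample, APC, DSP and PCDH7 in 4, PTPRK in 3, DCHS1 and TCF4 in 2 and DSG2 in 1. Before GC removal, DESeq2 called 7 as higher and 1 as lower, where it called 4.25% of all tested genes. With no filter, edgeR called 12 as higher and 1 as lower among the 120 listed genes then tested, against 4.46% of all genes.

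Further type I and II cadherins were scarce, except CDH24. Of 11 listed, 9 were in the table and 3 were tested. CDH24, a type II cadherin, had 10.9, 12.1 and 12.1 FPKM with TGF-β1, against 16.2, 16.2 and 14.4 FPKM in controls. It lay lower in every TGF-β1 library, and its log2 difference, -0.43 ± 0.14 (SE), was not called (edgeR adjusted p = 0.18; 0.0903 with the GC trend removed). CDH12 (0.599 FPKM with TGF-β1 and 0.528 FPKM in controls) and CDH18 (0.166 FPKM with TGF-β1 and 0.195 FPKM in controls) were low. CDH5, the endothelial VE-cadherin, averaged 0.0201 FPKM with TGF-β1 and 0.0321 FPKM in controls and was not tested. Among 14 tested atypical cadherins the median log2 difference was -0.04, against 0.01 over all tested genes, and 0.06 after GC removal, against -0.02 over all tested genes, so its sign turned. The most abundant were the calsyntenin genes CLSTN1 (102.1 FPKM with TGF-β1 and 102.8 FPKM in controls) and CLSTN3 (16.9 FPKM with TGF-β1 and 17.2 FPKM in controls) and the planar polarity cadherin CELSR2 (8.80 FPKM with TGF-β1 and 11.5 FPKM in controls). DCHS1, the ligand of the giant cadherin FAT4, had 1.98, 1.49 and 2.26 FPKM with TGF-β1, against 3.01, 3.52 and 2.90 FPKM in controls (log2 difference -0.74, edgeR adjusted p = 0.134; -0.62 and 0.0383 with the GC trend removed).

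Among desmosomal genes, 5 were tested, with a median log2 difference of -0.16 (-0.10 after GC removal). DSG2, the desmosomal cadherin desmoglein-2, had 10.8, 7.13 and 5.70 FPKM with TGF-β1, against 4.99, 3.28 and 5.06 FPKM in controls. Its log2 difference was 0.81 before and 0.44 after removal of the GC trend (edgeR adjusted p = 0.151 and 0.0462), so the size depended on that step by more than 1.5 times. DSP, the plaque protein desmoplakin, had 3.63, 2.88 and 2.08 FPKM with TGF-β1, against 1.16, 1.10 and 1.74 FPKM in controls (log2 difference 1.09, edgeR adjusted p = 0.0832; 1.06 and 0.00624 with the GC trend removed). Both were higher in every TGF-β1 library. PKP3, a plakophilin of the plaque, had 3.31 FPKM with TGF-β1 and 3.81 FPKM in controls (edgeR adjusted p = 0.596). Of 7 tested protocadherins, with a median of 0.27 (0.38 after GC removal), the most abundant were PCDH1 (4.88 FPKM with TGF-β1 and 3.99 FPKM in controls), PCDH7 and PCDH10 (1.58 FPKM in both groups). PCDH7 had 3.04, 2.41 and 2.46 FPKM with TGF-β1, against 3.63, 3.28 and 3.96 FPKM in controls (log2 difference -0.48, edgeR adjusted p = 0.188; -0.56 and 0.00991 with the GC trend removed).

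Of 19 genes for catenins and junction linkers, 14 averaged at least 1 FPKM. ACTN4 and ACTN1, the α-actinins, had 215.1 and 117.4 FPKM with TGF-β1, against 243.9 and 130.7 FPKM in controls. CTNNA1, the α-catenin that joins β-catenin to actin, had 79.1, 76.6 and 85.1 FPKM with TGF-β1, against 88.7, 85.2 and 92.4 FPKM in controls (edgeR adjusted p = 0.533). The list of 16 tested linkers had a median log2 difference of -0.08 (-0.07 after GC removal). CTNNAL1, the α-catenin relative α-catulin, had 33.7, 25.6 and 22.7 FPKM with TGF-β1, against 40.2, 29.4 and 34.6 FPKM in controls, with overlap. Its log2 difference was -0.36 before (edgeR adjusted p = 0.312) and -0.82 after removal of the GC trend (edgeR adjusted p = 0.00113), so it moved by more than 1.5 times. With the trend removed CTNNAL1 had 66.68, 67.05 and 82.55 CPM with TGF-β1, against 136.1, 128.3 and 115.8 CPM in controls. It then lay lower without overlap, as did 13.2% of all tested genes.

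Genes that set β-catenin's stability and its nuclear output were not called by edgeR before GC removal. Among 17 tested genes of the destruction complex and the nuclear partners, the median log2 difference was -0.01, and 0.06 after GC removal. The most abundant, FBXW11 (30.6 FPKM with TGF-β1 and 29.2 FPKM in controls), PYGO2 (18.6 FPKM with TGF-β1 and 18.9 FPKM in controls) and BCL9L (18.0 FPKM with TGF-β1 and 18.3 FPKM in controls), had adjusted p-values of 0.901, 0.925 and 0.895 in edgeR. APC, the scaffold of the complex, had 3.51, 1.73 and 1.36 FPKM with TGF-β1, against 0.712, 0.750 and 1.04 FPKM in controls (log2 difference 1.38, edgeR adjusted p = 0.105; 1.09 and 0.0145 with the GC trend removed). TGF-β1 replicate 1, which had the highest levels of GC-poor genes, was also the highest for APC. It remained so with the GC trend removed. APC then had 33.25, 19.62 and 18.88 CPM with TGF-β1, against 9.17, 11.77 and 12.93 CPM in controls. Among 9 tested β-catenin targets the median was 0.01 (0.06 after GC removal), and 0 had an unadjusted p under 0.05 in edgeR, against 15.6% of all tested genes. CCND1 (191.2 FPKM with TGF-β1 and 184.1 FPKM in controls), BAMBI (5.26 FPKM with TGF-β1 and 6.16 FPKM in controls) and TNFRSF19 (4.45 FPKM with TGF-β1 and 3.49 FPKM in controls) were the most abundant of them.

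Genes that process and move cadherins gave a median log2 difference of 0.11 over 17 tested, which turned to -0.11 after GC removal. FURIN, the protease that removes the cadherin propeptide, had 93.6 FPKM with TGF-β1 and 88.6 FPKM in controls (edgeR adjusted p = 0.86), ARF6, a small GTPase of endocytosis, 71.8 FPKM with TGF-β1 and 65.4 FPKM in controls (edgeR adjusted p = 0.679) and APH1A, a γ-secretase subunit, 44.7 FPKM with TGF-β1 and 48.2 FPKM in controls (edgeR adjusted p = 0.701). PTPRK, a receptor phosphatase at cell contacts, had 11.2, 8.62 and 6.54 FPKM with TGF-β1, against 5.90, 4.11 and 5.69 FPKM in controls (log2 difference 0.73, edgeR adjusted p = 0.144; 0.57 and 0.0187 with the GC trend removed). Of 9 tested transcription factors of the cadherin switch, TWIST2 (36.6 FPKM with TGF-β1 and 33.3 FPKM in controls), TCF3 (26.1 FPKM with TGF-β1 and 25.5 FPKM in controls) and SNAI2 (14.2 FPKM with TGF-β1 and 12.6 FPKM in controls) were the most abundant, and their adjusted p-values in edgeR were 0.733, 0.976 and 0.669. TCF4, an E-box binding factor, had 1.47, 0.969 and 0.613 FPKM with TGF-β1, against 0.503, 0.424 and 0.632 FPKM in controls (log2 difference 0.95, edgeR adjusted p = 0.154; 0.81 and 0.0372 with the GC trend removed). The list's median was 0.11 (0.15 after GC removal).

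**Figure D5:**
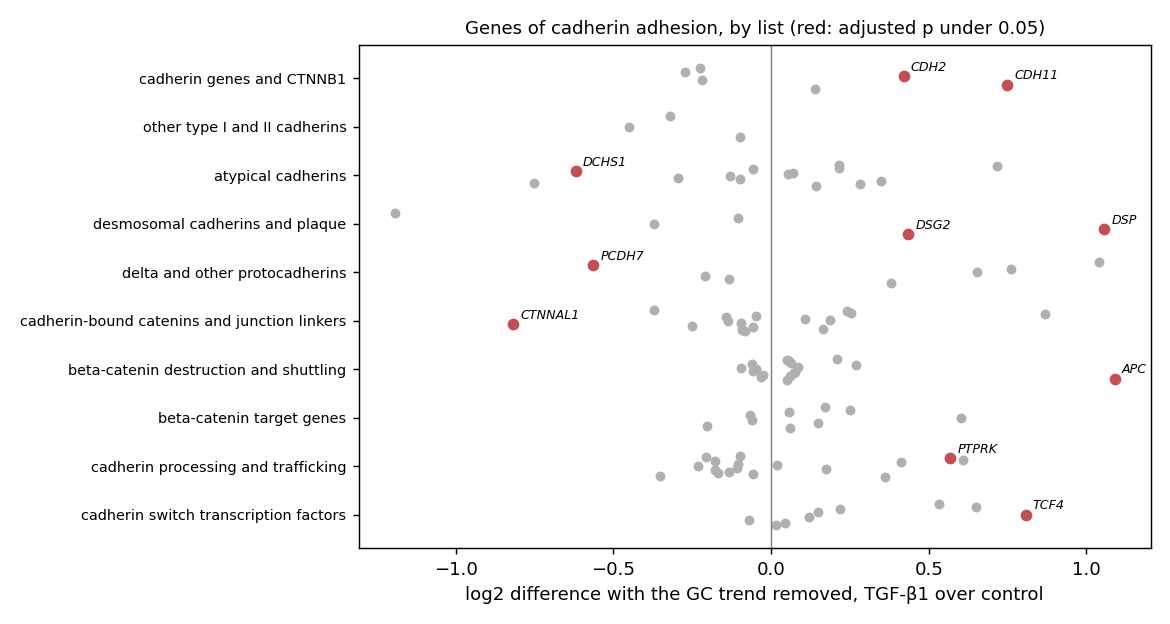
Log2 difference of TGF-β1 over control with the GC trend removed (horizontal axis) for the tested genes of each list (rows); each point is a gene, and red points with names passed in edgeR at an adjusted p under 0.05. CDH2 (0.42) and CDH11 (0.75) are the red points among the members, and DSP (1.06) and APC (1.09) lie farthest to the right of the named genes.

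The tested genes whose profile over the 6 libraries was most like that of CDH2 were FSTL1, TBILA and PDPN. Likeness was the root mean square difference between log2 CPM profiles, each centred on its own mean, and was 0.0456, 0.0489 and 0.0586. The GC trend was left in these profiles, and likeness without it was not tested. A small constant was added to each CPM before the log. TBILA had only 1.15, 0.949 and 0.736 CPM with TGF-β1, against 0.495, 0.350 and 0.671 CPM in controls. At such levels the constant flattens a profile, so the likeness of TBILA depends on it. FSTL1 had 575.0, 510.3 and 420.1 CPM with TGF-β1, against 319.4, 269.1 and 362.3 CPM in controls. PDPN had 16.6, 15.1 and 13.0 CPM with TGF-β1, against 9.26, 8.45 and 10.2 CPM in controls. None of the 3 was called (edgeR adjusted p = 0.0995, 0.316 and 0.139).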

How the data were processed

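RNA sequencing of 6 LX-2 samples was used as 1 deposited table. Per the labels' protocols, Trizol was used for RNA and the NEBNext Ultra RNA kit for libraries; strand is not marked by that kit. HISAT2, HTSeq 0.13.5 and GRCh38 are named in the submitters' processing notes, without roles. Which gene annotation was counted is unknown here. Per the file headers, the authors deposited whole-number counts per gene and sample, not normalized, and FPKM. The authors' deposited FPKM followed from the counts with 1 whole-number length per gene (within 0.01 bases) for all 27830 genes.

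The test on counts was that of edgeR 4.0.16, run in R 4.3.3 (quasi-likelihood F test, robust; TMM; filterByExpr), with Benjamini-Hochberg adjustment over 14463 genes and calls at an adjusted p under 0.05. Levels are FPKM, or CPM on TMM-scaled totals. The SE is the log2 difference divided by the root of F, and a 95% interval uses the moderated degrees of freedom. The GC trend of each library (loess, span 0.5, on mean transcript GC content in GENCODE release 29) was removed by offsets; 850 unmatched genes of the table got no correction. Coordinates and overlaps come from the same release. A count of 3, taken as the floor, was 0.17 to 0.216 CPM (counting error only). No 2 libraries of a group were duplicates: chi-square per degree of freedom was 5.21 to 45.7.

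Named were all members, a TGF-β panel, called genes and the 3 most abundant tested genes of each list, and the 3 profiles most like the member with the smallest p. Marker sums were compared by exact permutation. The members and lists were chosen with earlier results of these data known. Alternatives were other scaling, filters, the replicate block, GC removal, DESeq2 1.42.0, limma 3.58.1 (voom, and log2(FPKM + 1) and log2(FPKM + 0.1)), each sample left out and, chosen after seeing the data, GC removal with each sample left out and levels at GENCODE exon lengths.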

Additional observations from a re-analysis of the deposited data

How the results depend on the processing

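Of the 6 tested members 0 were higher and 0 lower. As higher, 2 passed with no filter, 2 with DESeq2, 2 after GC removal, 1 with the replicate block and 1 with the block and GC removal; without 1 sample there were 0 to 2 higher and 0 to 1 lower, before and after GC removal. Over all genes, 27 higher and 26 lower calls became 57 and 54 with upper quartile factors, 1071 and 169 with no filter, 493 and 122 with DESeq2, and 226 and 221 after GC removal. Leaving out 1 sample gave 4 to 1374 higher and 0 to 297 lower. With GC removal too, the higher and lower calls were 166 and 177, 38 and 41, and 670 and 904 without TGF-β1 replicates 1, 2 and 3, and 41 and 61, 76 and 79, and 212 and 182 without control replicates 1, 2 and 3. The causes were not tested.

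The replicate block gave 429 higher and 98 lower calls (226 and 227 with GC removal), and CDH2 at an edgeR adjusted p of 0.0351 (0.036 with GC removal). CDH11 had 0.0777 with the block and 0.0522 with the block and GC removal. Between samples of 1 number, deviations from the group means had correlations of 0.164, 0.093 and -0.336 (0.001, 0.071 and -0.16 with GC removal). Some samples were closest to another number, so the numbers were not taken to pair them.

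CDH2, CDH4, CDH11, CDH13 and CTNNB1 kept their direction in 24 alternatives each, although sizes moved: CDH13, at -0.18, ran from -0.32 to -0.04, CTNNB1, at -0.10, from -0.26 to -0.062, and CDH11, at 0.70, from 0.39 on log2(FPKM + 1) to 0.93. CDH10, at 0.50, reversed to -0.062 without TGF-β1 replicate 1 (up to 0.91 without other samples), and with GC removal to -0.22 without TGF-β1 replicate 1 and -0.082 without control replicate 1. Adjusted p ranged from 0.00246 to 0.372 for CDH2, 0.00491 to 0.418 for CDH11 and 0.0263 to 0.512 for CDH4. The level order was the same in 3 alternatives; with GENCODE exon lengths 2 members, CDH2 and CTNNB1, changed places, since the deposited FPKM use a longer CDH2. Counts of 0 to 31 per library limit CDH3, CDH6 and CDH10.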

Other observations

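CTNND1, the gene of p120-catenin, which binds the cadherin tail near the membrane, was listed at a low level for a main cadherin partner, with 0.533, 0.567 and 0.550 FPKM in TGF-β1 libraries, against 0.591, 0.464 and 0.559 FPKM in controls (edgeR adjusted p = 0.978). GENCODE release 29 holds a read-through gene, TMX2-CTNND1, on the same strand over part of CTNND1, and other genes cover 4.64% of the CTNND1 exon bases there. The part of the read-through gene in the level was not tested. The deposited FPKM also use about 15220 bases for CTNND1, while its exons in that release cover 8798. A longer length gives a lower FPKM but leaves counts unchanged. CTNND1 had 116 to 142 counts per library, and CTNNB1 had 5358 to 7774. The part of the length in the level was not tested. JUP, the gene of plakoglobin, the β-catenin relative that binds classical and desmosomal cadherins, had 9.43, 10.4 and 11.6 FPKM in TGF-β1 libraries, against 10.9, 13.7 and 12.2 FPKM in controls (edgeR adjusted p = 0.463). ZEB1, a repressor of CDH1, had 2.33, 1.43 and 0.842 FPKM in TGF-β1 libraries, against 0.704, 0.725 and 0.821 FPKM in controls, with a log2 difference of 1.01 before and 0.65 after removal of the GC trend (edgeR adjusted p = 0.166 and 0.089). These genes were chosen after their values were seen.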
